A study of Mus musculus with 2 samples.

Results

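Accessible chromatin at 35 genes that mark B cells, myeloid cells, dendritic cells and antigen presentation was examined in mouse CD8+ T cells by ATAC-seq, in which a transposase cuts and tags open DNA. The genes were chosen by name as markers of cell types other than T cells: 11 B cell markers, 14 myeloid markers, 6 dendritic markers and 4 genes of MHC class II presentation. They are 35 of 21887 protein-coding genes in the annotation. The peaks that touched the span of a marker, or the 10 kb on either side of it, were taken as its locus peaks, and each peak was counted once. That gave 139 of 64910 peaks in the treatment library and 173 of 85137 peaks in the control library.

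The series, titled Peml-1, holds 1 ATAC-seq library of CD8+ T cells titled treatment and 1 titled control. The labels do not say which agent was given, for how long, or to which strain or age of mouse, and the genotype field holds a description of the assay. The labels also disagree with themselves: the treatment field of the library titled control reads "Treatment", and that of the library titled treatment reads "Combined treatment". The groups are called here by their titles. Neither group was replicated, so differences between treatment and control are given as values with no test, and intervals cover counting or the spread between peaks only. Sorting purity was not given in the sources used here. In a bulk library, a few cells of another type with an open site cannot be told apart from slight opening of that site in many T cells.

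B cells are specified by the transcription factors Ebf1 and Pax5, which switch on the receptor chains and signalling adaptors of the lineage. Myeloid cells depend on PU.1, encoded by Spi1, and on C/EBP factors, and classical dendritic cells on Flt3 signalling, and they express Zbtb46. In the mouse, MHC class II genes are driven by the coactivator Ciita in B cells, macrophages and dendritic cells and are normally silent in T cells. Some of the genes are not strictly foreign to CD8 T cells: Itgam, which encodes the CD11b integrin chain, can appear on activated CD8 T cells. Active promoters are open in ATAC-seq, while enhancers inside or beside a gene can be open without transcription of that gene.

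The promoter sequences below show both kinds of marker promoter that the peaks separated. They are the 250 bases upstream of the RefSeq start site (GRCm38.p6, the patch release of mm10), printed 5′ to 3′ on the gene's own strand. The first 4 were chosen because a peak of both libraries covered the start site: Cr2 (complement receptor CD21, minus strand, chr1:195176720-195176969), Itgam (plus strand, chr7:128062390-128062639), Flt3 (a cytokine receptor, minus strand, chr5:147400490-147400739) and H2-Aa (the alpha chain of the I-A molecule, minus strand, chr17:34287824-34288073). The remaining pair had no peak within 1 kb of the start in either library: Blnk (a B cell receptor adaptor, minus strand, chr19:40994222-40994471) and Mpo (the neutrophil enzyme myeloperoxidase, plus strand, chr11:87793534-87793783). Capitals mark the CCAAT box (CCAAT, or ATTGG on the opposite strand), the octamer ATGCAAAT (ATTTGCAT on the opposite strand) and a PU.1-type ETS motif, GAGGAAGT.
Cr2: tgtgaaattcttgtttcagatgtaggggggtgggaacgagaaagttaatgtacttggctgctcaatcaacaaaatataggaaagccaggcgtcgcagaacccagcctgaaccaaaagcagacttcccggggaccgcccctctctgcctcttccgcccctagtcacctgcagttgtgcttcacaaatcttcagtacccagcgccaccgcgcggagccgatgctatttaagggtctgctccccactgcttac
Itgam: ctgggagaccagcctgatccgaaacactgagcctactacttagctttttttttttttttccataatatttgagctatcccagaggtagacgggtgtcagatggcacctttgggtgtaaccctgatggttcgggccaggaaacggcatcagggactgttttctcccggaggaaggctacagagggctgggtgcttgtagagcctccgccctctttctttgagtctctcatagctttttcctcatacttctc
Flt3: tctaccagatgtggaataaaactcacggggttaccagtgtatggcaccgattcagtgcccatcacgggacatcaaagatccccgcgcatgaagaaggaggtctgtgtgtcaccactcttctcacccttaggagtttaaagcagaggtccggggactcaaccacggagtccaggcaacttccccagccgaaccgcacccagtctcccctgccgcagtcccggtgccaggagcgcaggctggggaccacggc
H2-Aa: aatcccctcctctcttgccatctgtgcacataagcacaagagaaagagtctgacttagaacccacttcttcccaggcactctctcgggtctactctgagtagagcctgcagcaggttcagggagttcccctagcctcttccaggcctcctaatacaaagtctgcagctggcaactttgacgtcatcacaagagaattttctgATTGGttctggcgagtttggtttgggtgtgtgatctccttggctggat
Blnk: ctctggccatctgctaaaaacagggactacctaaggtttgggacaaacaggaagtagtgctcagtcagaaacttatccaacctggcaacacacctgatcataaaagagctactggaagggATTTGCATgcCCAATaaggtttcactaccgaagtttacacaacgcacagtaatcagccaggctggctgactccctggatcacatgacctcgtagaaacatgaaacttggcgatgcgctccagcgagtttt
Mpo: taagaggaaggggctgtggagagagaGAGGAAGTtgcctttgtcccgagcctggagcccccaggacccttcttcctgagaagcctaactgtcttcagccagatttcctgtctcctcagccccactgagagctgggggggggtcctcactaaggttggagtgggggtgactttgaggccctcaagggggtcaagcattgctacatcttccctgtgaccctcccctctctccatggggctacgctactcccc

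At the open H2-Aa promoter, the peak summit lay 100 bp upstream of the start in both libraries, within the printed stretch. The summit at Cr2 lay 56 bp upstream in treatment and 23 bp upstream in control. The summits of Itgam and Flt3 lay just inside the gene, at 21 and 95 bp downstream of the start in treatment and at 23 and 96 bp in control. The Blnk promoter held the octamer and a CCAAT box, and the Mpo promoter the PU.1-type motif, without a peak in either library.

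The label of the cells was first set beside genes that T cells use. These lists were chosen with earlier results of these data known, so this is no independent check. All 14 T cell genes with an entry in the annotation, among them Cd3e, Cd8a, Lck and Bcl11b, held a peak at a gene end in both libraries. Of 12 genes typical of liver, brain or pancreas, 4 held one in treatment and 6 in control. Over all protein-coding genes the shares were 61.5% in treatment and 66.1% in control. A gene-end peak here is a peak that touches the 1 kb on either side of the first or last base of the gene span. The whole peak lists differed in length, and 93.2% of treatment peaks and 70.8% of control peaks overlapped a peak of the other library. The local background of each peak was recovered from fold and −log10 p-value. Its common floor was 15.1 reads in treatment (32.8% of peaks) and 14.2 reads in control (33.1% of peaks). In control, 0.00117% of peaks lay below that floor. Whether the floor stands for the average read density over the genome is not stated in the sources used here.

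Among the 35 markers, 18 held a gene-end peak in treatment and 22 in control. These were 51.4% of markers in treatment (35.6% to 67.0%, 95% Wilson interval) and 62.9% in control (46.3% to 76.8%). Over all protein-coding genes, 61.5% held one in treatment and 66.1% in control. The marker shares were thus near the genome-wide background in both libraries, with intervals that included it. By class, 6 of 11 B cell markers had a gene-end peak in treatment against 7 in control, 7 of 14 myeloid markers against 9, and 2 of 6 dendritic markers against 3. Of the 4 MHC class II genes, 3 had one in each library.

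**Figure D1:**
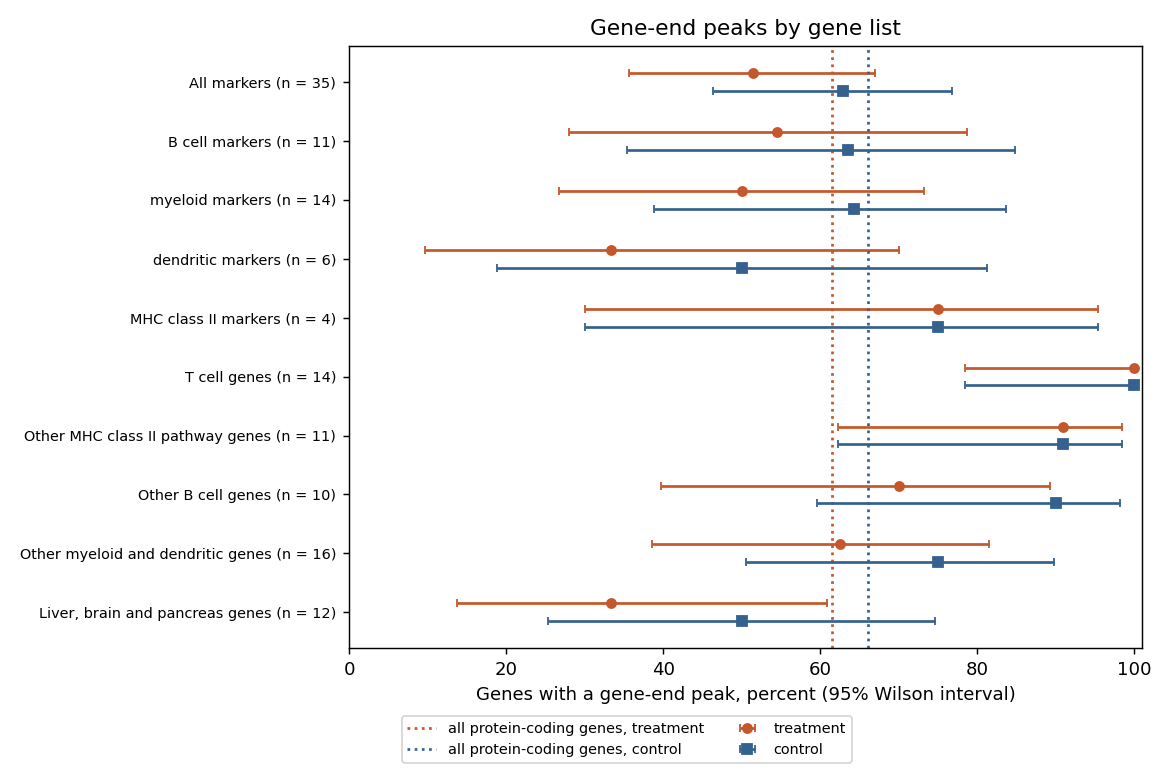
Share of genes with a gene-end peak (horizontal axis, percent, with 95% Wilson intervals) for the markers, their classes and other gene lists (rows), with treatment as circles and control as squares. Dotted lines show the share over all protein-coding genes, 61.5% in treatment and 66.1% in control; the T cell genes sit at 100%, and the markers at 51.4% in treatment and 62.9% in control.

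The same 18 markers that were open at an end in treatment were open at an end in control. No marker had a gene-end peak in treatment alone (0.311% of all genes did). Cd22, Lyz2, Csf1r and Clec9a had one in control alone. These were 11.4% of markers, against 4.84% of all genes. The 13 markers without a peak within 1 kb of an end in treatment and control alike, 37.1% of the list against 33.6% of all genes, were Ms4a1, Pax5, Fcer2a, Blnk, Adgre1, C1qa, Csf3r, Mpo, Clec7a, Itgax, Zbtb46, Siglech and Ciita. This group depended on the window. Within 2 kb of an end, 23 markers had a peak in treatment (65.7%, against 65.8% of all genes). In control 28 did (80.0%, against 70.3% of all genes), and 7 had none in either library (20.0%, against 29.3% of all genes). Pax5, Csf3r, Mpo and Itgax then had a gene-end peak in both libraries, and Fcer2a and C1qa in control alone. The 7 that stayed closed at their ends included the class II coactivator Ciita, the classical dendritic cell factor Zbtb46 and the B cell adaptor gene Blnk. These are the ends of the whole span, which can lie far from a start site. The placed start of Zbtb46, at position 181424388, lay inside a span that ended at 181493262. No peak lay within 1 kb of that start either. Shared peaks between that start and the span end, such as that at 13.7-fold in treatment and 16.2-fold in control, were counted as inside the gene.

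A peak at a gene end can belong to a neighbour. Counting only peaks that touched no other protein-coding gene end, 15 markers were open at an end in treatment and 18 in control. The same rule, added after the data had been seen, held for 47.8% of all genes in treatment and 52.4% in control. The markers that dropped out were Cd79a beside Arhgef1, Cd68 beside Eif4a1 and Xcr1 beside Fyco1, and in control also Csf1r beside Hmgxb3. The gene-end peaks of Fcgr3, an Fc receptor of myeloid cells, lay among tRNA genes that this rule did not remove.

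**Figure D2:**
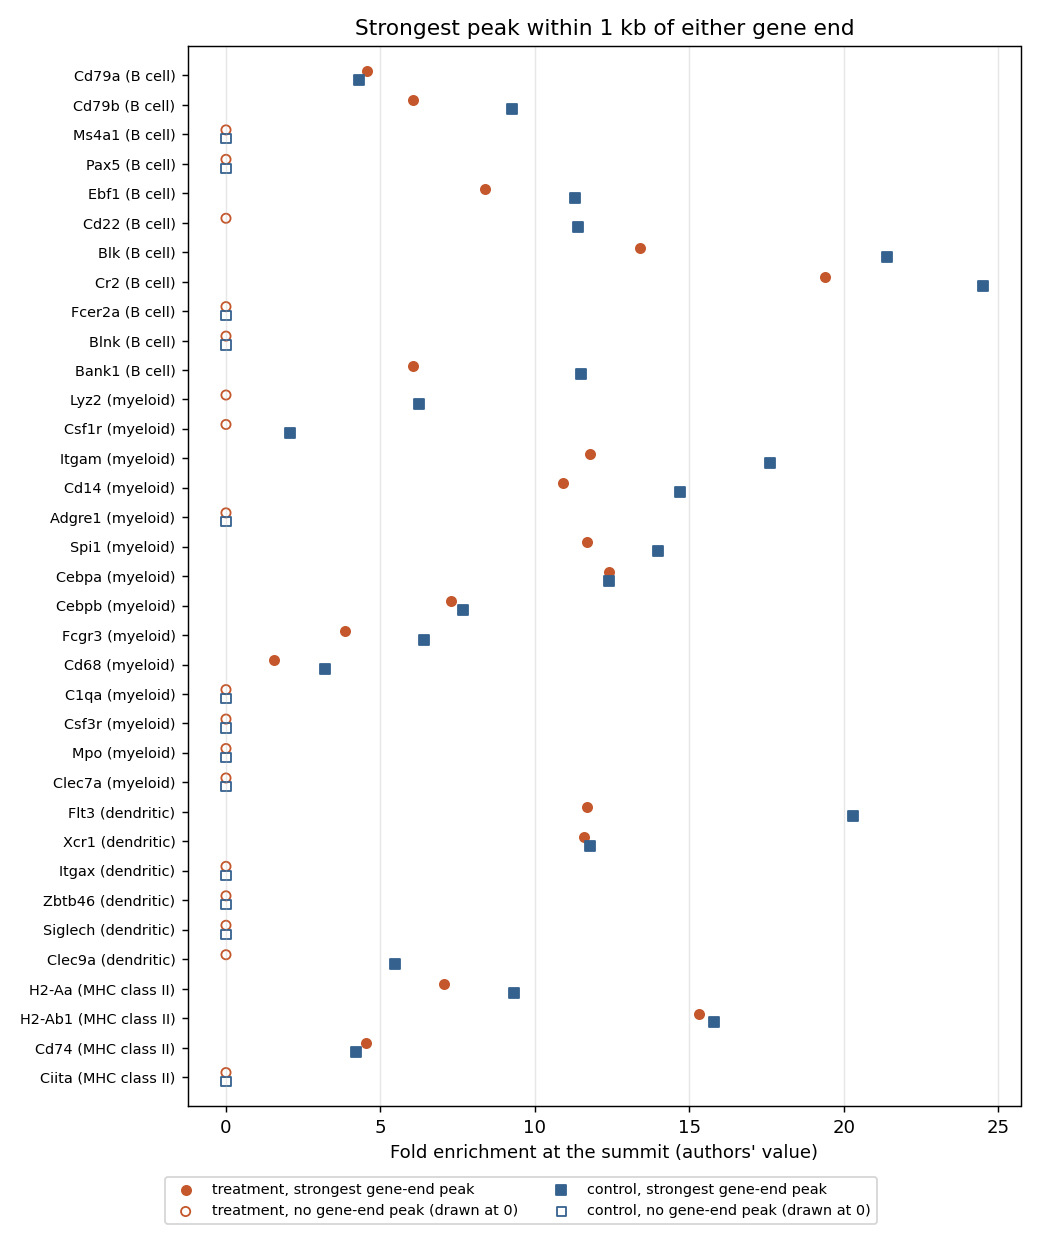
Fold enrichment at the summit of the strongest gene-end peak (horizontal axis) for each of the 35 markers (rows, by class), with treatment as circles, control as squares and open symbols at 0 where there was none. The values of Spi1 come from different ends of the gene. Cr2 is highest in both libraries, at 19.4 in treatment and 24.5 in control, and Cd22, Lyz2, Csf1r and Clec9a have a control value alone.

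Fold enrichment below is the authors' deposited value at the peak summit, the coverage over the local background. Of the B cell markers, Cr2 had the strongest gene-end peak, at 19.4-fold in treatment and 24.5-fold in control, 572 and 632 bp wide. Blk, a kinase of the B cell receptor pathway, followed with 13.4-fold in treatment and 21.4-fold in control. Ebf1, a factor that starts the B cell programme, reached 8.39-fold in treatment and 11.3-fold in control, in a peak beside its start. Cd79b and Cd79a encode the signalling chains of the B cell receptor. Cd79b had 6.05-fold in treatment and 9.26-fold in control. Cd79a had 4.58-fold in treatment and 4.32-fold in control, at its far end. Bank1, a B cell scaffold protein, had 6.04-fold in treatment and 11.5-fold in control, over its start. Of the 6 genes open in both libraries, Cd79a alone was the higher in treatment. Cd22, an inhibitory receptor, had a peak of 11.4-fold in control with none in treatment; it was 831 bp wide and lay at the upper end of the span on chromosome 7.

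Among the myeloid markers, the C/EBP genes had broad open ends. Cebpa was at 12.4-fold in each library, in peaks of 1691 bp in treatment and 1803 bp in control. Cebpb, which T cells also express, was at 7.28-fold in treatment and 7.66-fold in control, 1725 and 1849 bp wide. Spi1, which encodes PU.1, was at 11.7-fold in treatment and 11.3-fold in control at its lower-coordinate end, and at 5.17-fold in treatment and 14.0-fold in control at the other. All 3 of these factor genes were open at an end in both libraries. Cd14, the co-receptor for bacterial lipopolysaccharide, was at 10.9-fold in treatment and 14.7-fold in control. Itgam was at 11.8-fold in treatment and 17.6-fold in control, over its start. Fcgr3 was at 3.87-fold in treatment and 6.41-fold in control. Cd68, a lysosomal glycoprotein of macrophages, was at 1.57-fold in treatment and 3.22-fold in control, the lowest of the values given for markers open at an end in both libraries.

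Lyz2 and Csf1r were the myeloid genes open at an end in control alone. The Lyz2 peak, at the start of the lysozyme gene used to mark macrophages, was at 6.26-fold. The Csf1r peak, at the receptor for macrophage colony-stimulating factor, was at 2.07-fold. Its summit held 33 reads, and its fold stood at percentile 1.30 of the control list. The remaining 5 myeloid markers, Adgre1 (the F4/80 antigen), C1qa (complement), Csf3r (the G-CSF receptor), Mpo and Clec7a (Dectin-1), had no peak within 1 kb of an end in either.

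Of the dendritic markers, Flt3 was at 11.7-fold in treatment and 20.3-fold in control at its start. Xcr1, a chemokine receptor of cross-presenting dendritic cells, was at 11.6-fold in treatment and 11.8-fold in control, but at its far end and beside Fyco1. Clec9a, a receptor for dead cells, had 5.48-fold in control alone. Itgax (CD11c), Zbtb46 and Siglech (a plasmacytoid dendritic cell lectin) had none. The MHC class II genes H2-Ab1, H2-Aa and Cd74, which encode the I-A beta chain, the I-A alpha chain and the invariant chain, were open in both libraries. H2-Ab1 was at 15.3-fold in treatment and 15.8-fold in control. H2-Aa was at 7.05-fold in treatment and 9.31-fold in control. Cd74 was at 4.53-fold in treatment and 4.22-fold in control. Ciita, which controls these genes, had no gene-end peak, though 4 treatment peaks and 6 control peaks lay in its locus.

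Start sites could be placed for 24 markers. A peak within 1 kb of the start was found at 10 of them in treatment (41.7%, 24.5% to 61.2%, Wilson). In control it was found at 13 (54.2%, 35.1% to 72.1%). Over all protein-coding genes with a placed start, the shares were 61.8% in treatment and 65.5% in control. The treatment interval thus ended just below the background, and the control interval included it. The peak covered the start base itself in both libraries at Cr2, Bank1, Itgam, Cebpa, Cebpb, Cd68, Flt3 and H2-Aa. At Ebf1 and Fcgr3 it lay nearby, and at Cd22, Lyz2 and Fcer2a it was found in control alone. The start sites of Cd79b, Ms4a1, Blk, Csf1r, Cd14, Adgre1, Spi1, C1qa, H2-Ab1, Cd74 and Ciita were not used here.

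The marker promoters were poor in CpG dinucleotides. Over the 300 bases of the RefSeq promoter table, the median ratio of observed to expected CpG was 0.29 for the 24 markers and 0.58 for 17492 protein-coding genes. A ratio of 0.6 or more was found in 5 markers (20.8%) and in 48.3% of all genes. Over all genes, promoters with a start-site peak in control had a median ratio of 0.75, and those without had 0.18. Among the markers these medians were 0.26 with a peak (13 genes) and 0.31 without (11 genes). A ratio of 0.6 or more was found at 4 of the 13 marker promoters with a peak (30.8%) and at 1 of the 11 without (9.09%), against 70.8% and 5.73% over all genes. The medians and these shares thus ran in opposite directions among the markers. Among promoters below 0.6, a start-site peak was present at 6 of 19 markers in treatment (31.6%) and 9 of 19 in control (47.4%). The same CpG-poor class of all genes had one at 32.8% in treatment and 37.0% in control.

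Motifs were searched on both strands of the same 300 bases. CCAAT was found in 7 of 24 marker promoters (29.2%) and in 39.0% of all promoters. The octamer ATGCAAAT was found in Blnk alone among the markers and in 1.71% of all promoters. The PU.1-type motif GAGGAAGT was found in Mpo alone and in 3.17% of all promoters. The ETS motif CCGGAAGT was found in 0 markers and in 5.29% of all promoters. The Runx motif TGTGGT was found in 5 markers (20.8%) and in 15.1% of all promoters. The few letters counted here describe these windows and say nothing about factor binding.

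Beyond the gene ends, the marker loci held many open sites. The 139 treatment peaks covered 84977 bp and the 173 control peaks covered 106167 bp. The ratio of peak numbers, treatment over control, was 0.803 (0.638 to 1.01, counting error), and that over the loci of all protein-coding genes was 0.776. The markers therefore had fewer listed sites in treatment in about the proportion found around genes in general. This direction depended on list length: with the control list reduced to its 64910 most significant peaks, the ratio was 1.05.

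Counted gene by gene, 18 of 35 markers had fewer locus peaks in treatment than in control (44.7% of all genes did), 3 had more (5.65% of all genes did) and 14 had equal numbers. The largest deficits were at Bank1, with 8 treatment and 14 control peaks, and Fcer2a (CD23, a receptor for IgE), with 3 and 8. Ebf1 had 11 treatment and 15 control peaks. These deficits shrank when the control list was reduced to the length of the treatment list. Bank1 then had 8 treatment and 9 control peaks, Fcer2a 3 and 4, and Ebf1 11 and 14. In the full lists, the markers with more in treatment were Flt3, with 9 treatment and 6 control peaks, Spi1, with 7 and 5, and Ms4a1 (CD20), with 1 and 0. Adgre1 was the only marker with no locus peak in either library. C1qa, Clec7a and Siglech had none in treatment and 3, 1 and 1 in control.

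**Figure D3:**
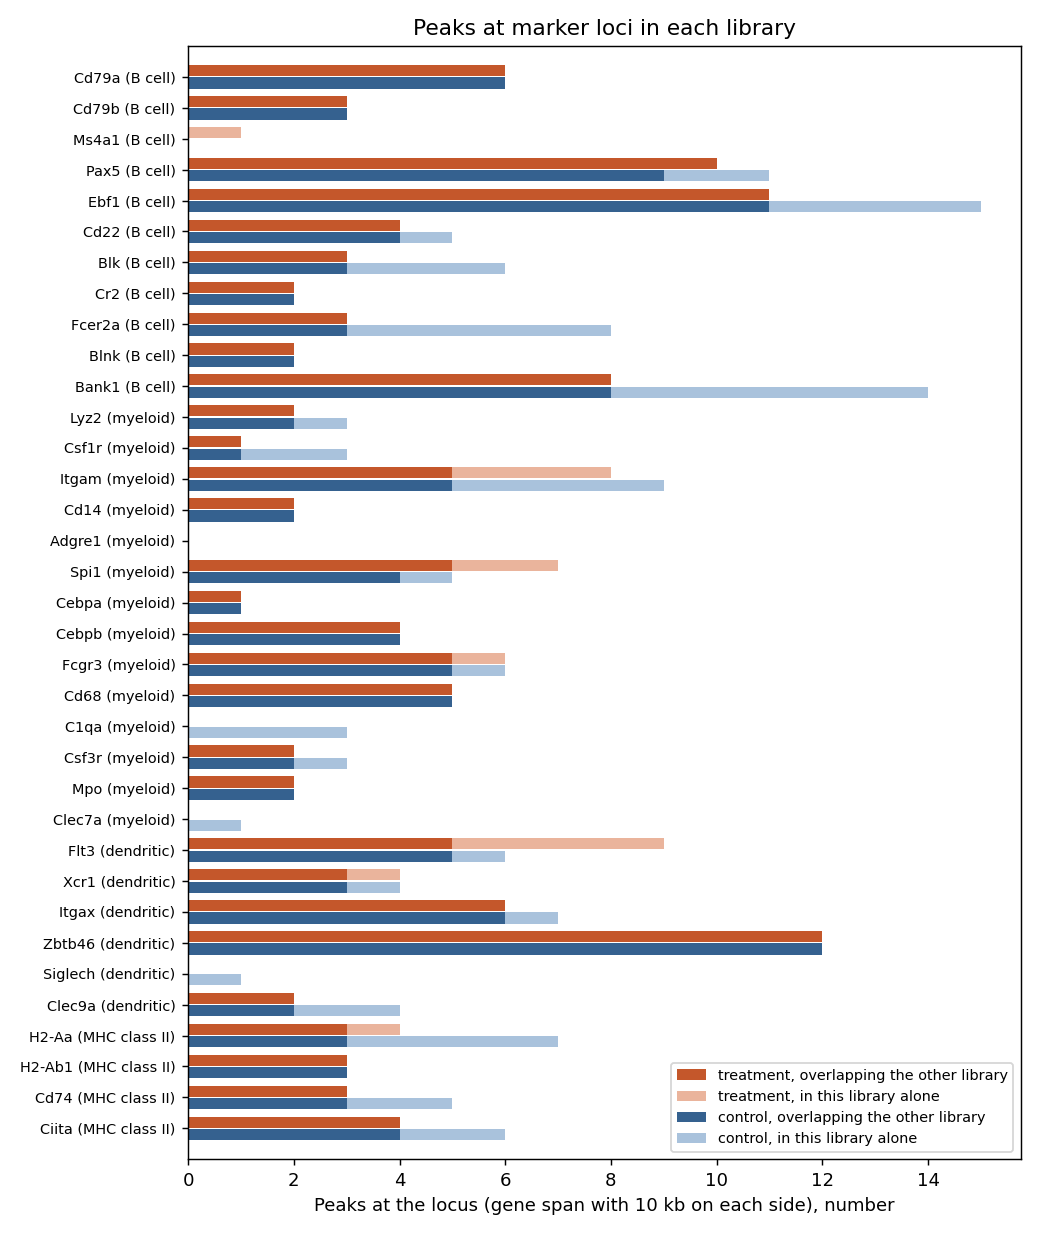
Number of locus peaks of each marker (bars, by class), with treatment above control and the part found in that library alone drawn lighter. Zbtb46 has 12 peaks in each library, Bank1 has 8 in treatment and 14 in control, and Flt3 has 9 in treatment and 6 in control.

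Most marker peaks were common to the libraries. Of the treatment peaks, 126 of 139 overlapped a control peak by at least 1 bp, or 90.6% (84.7% to 94.5%, Wilson). Of the control peaks, 124 of 173 overlapped a treatment peak, or 71.7% (64.5% to 77.9%). Around all protein-coding genes these shares were 93.7% in treatment and 72.5% in control. With the control list reduced to equal length, the shares became 81.3% in treatment and 83.5% in control.

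The 13 treatment-only peaks were weaker and narrower than the shared ones, with a median fold of 2.99 against 8.14 for shared treatment peaks and a median width of 266 against 553 bp. The 49 control-only peaks had a median fold of 4.28 against 11.2 for shared control peaks, and a median width of 280 against 614 bp. By class, B cell loci held 53 treatment peaks, of which 98.1% were shared, and 72 control peaks, of which 70.8% were. Myeloid loci held 40 treatment peaks (85.0% shared) and 47 control peaks (70.2%). Dendritic loci held 32 treatment peaks (84.4% shared) and 33 control peaks (81.8%). MHC class II loci held 14 treatment peaks (92.9% shared) and 21 control peaks (61.9%).

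**Figure D4:**
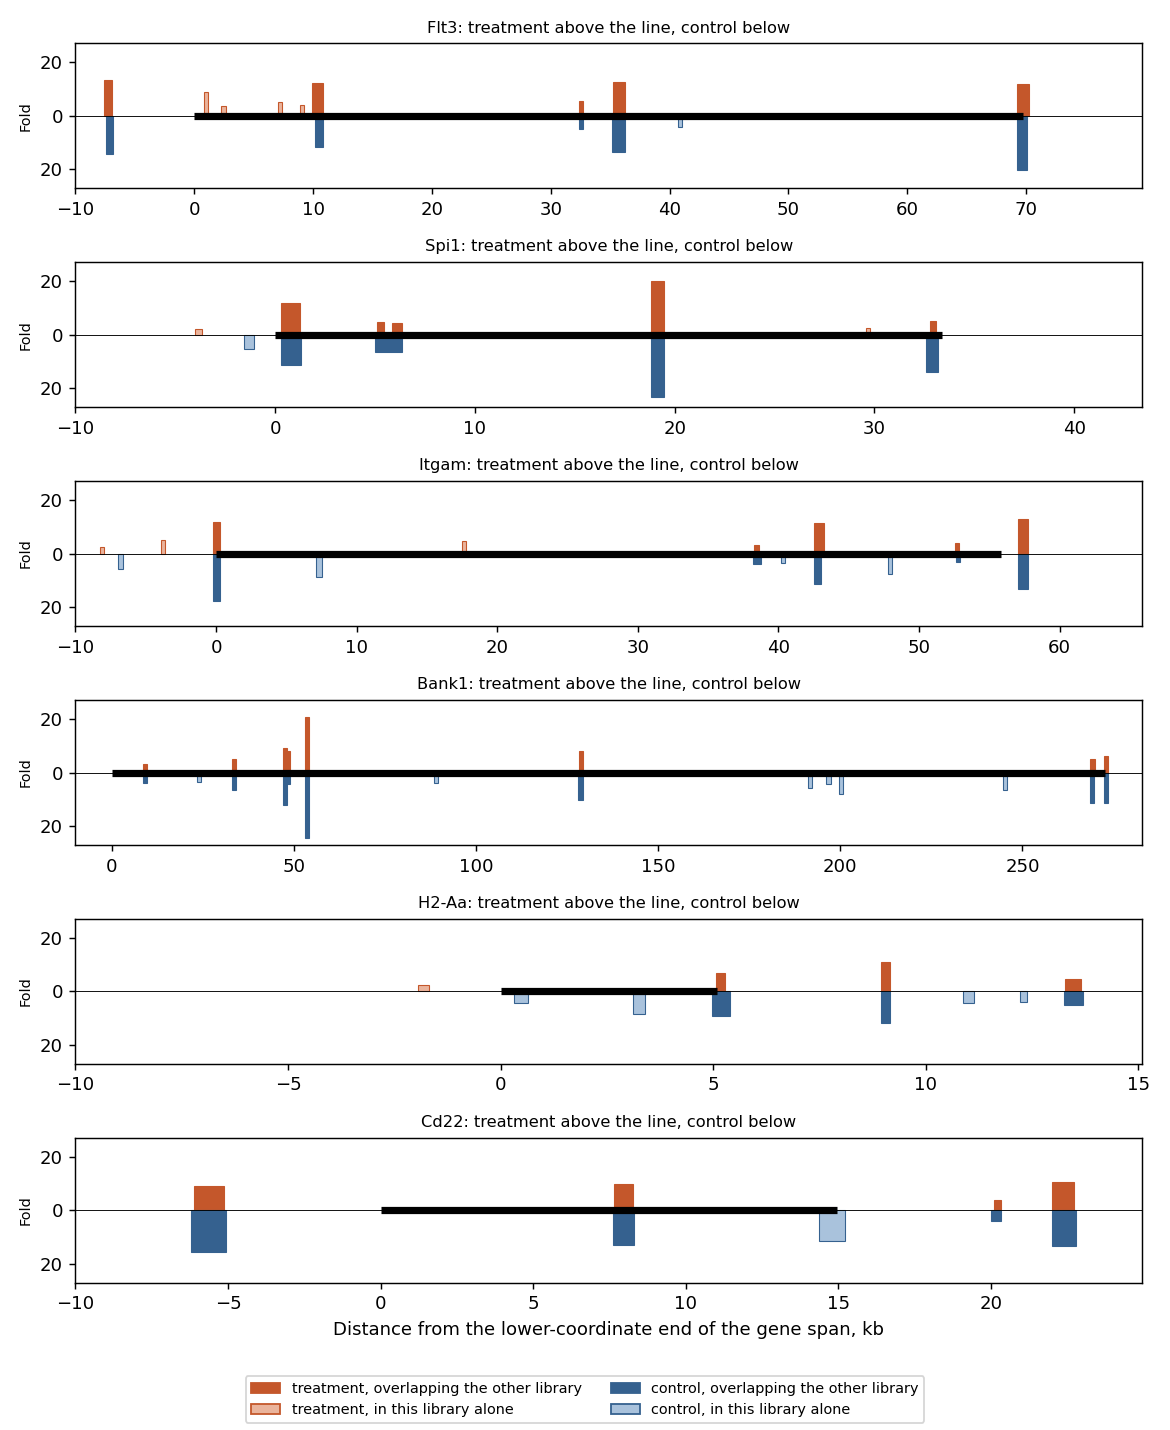
Peaks along the loci of Flt3, Spi1, Itgam, Bank1, H2-Aa and Cd22 by distance in kb from the lower-coordinate end of the gene span (black bar), with fold enrichment of treatment peaks drawn upward and of control peaks downward. Dark bars overlap a peak of the other library, light bars do not, and the narrowest peaks are widened to stay visible; Flt3 has 4 treatment-only peaks near 1 end, and Cd22 has a control-only peak at 11.4-fold at the upper end of its span.

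Single-library peaks were spread unevenly over the markers. The B cell loci held 1 treatment-only peak, at Ms4a1, next to the end of Ms4a5, with a fold of 2.99. Their control-only peaks numbered 6 at Bank1, 5 at Fcer2a, 4 at Ebf1, 3 at Blk, 2 at Pax5 and 1 at Cd22. The strongest of these was inside Ebf1, at 17.4-fold, 763 bp wide and 318 reads at the summit. All 11 treatment peaks of Ebf1 overlapped a control peak.

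At Flt3 (chromosome 5, 147330741 to 147400489), 4 treatment-only peaks lay close together toward the 3′ end of the gene. Their folds were 8.97, 3.45, 5.25 and 3.89, and the first of them lay within 1 kb of that end. The same locus had 1 control-only peak, at 4.20-fold. Itgam had 3 treatment-only peaks of 2.43, 5.04 and 4.67-fold and 4 control-only peaks of 5.86, 8.75, 3.42 and 7.66-fold, while its start-site peak and several intragenic peaks were shared.

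The count at Spi1 (chromosome 2, 91082374 to 91115759) rested partly on how a site was divided. A single control peak of 1341 bp at 6.58-fold overlapped a pair of treatment peaks of 333 and 519 bp, at 4.77 and 4.17-fold. The 2 treatment-only peaks at this locus were at 2.04 and 2.31-fold, and the control-only peak was at 5.31-fold. Around H2-Aa, 1 treatment-only peak stood at 2.37-fold and 4 control-only peaks stood between 3.85 and 8.38-fold. Cd74 and Ciita had 2 control-only peaks each and no treatment-only peak.

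Pooled over the classes, summit strength was close to that of other genes. The median fold was 7.29 in treatment (5.55 to 8.91, order-statistic interval) and 8.11 in control (6.47 to 10). Around all protein-coding genes it was 7.51 in treatment and 8.20 in control. The median marker peak stood at percentile 49.7 of the treatment list and 49.5 of the control list, near the middle of each. The classes lay on different sides of this middle. Dendritic loci had a median fold of 11.2 in treatment (7.85 to 12.6, percentile 69.2) and 13.6 in control (8.11 to 15.7, percentile 74.0). Myeloid loci had 5.16 in treatment (4.17 to 10.9, percentile 33.9) and 6.60 in control (5.50 to 11.4, percentile 40.2). B cell loci were nearer the pooled value, with 6.85 in treatment (percentile 46.8) and 7.99 in control (percentile 48.9). MHC class II loci had 5.95 in treatment (percentile 40.2) and 5.26 in control (percentile 30.5), over few peaks. These differences between classes were not tested, and 12 of the dendritic peaks in each library came from Zbtb46 alone. Folds ran between 1.57 and 22.0 in treatment and between 1.59 and 25.4 in control. At the T cell genes the median fold was lower, at 4.70 in treatment and 5.16 in control. Their median summit coverage was higher, at 355 reads in treatment and 371 in control, against 192 and 266 reads at the markers. Fold divides coverage by local background, so it does not rank genes by openness alone.

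Peak widths were likewise similar. The median was 519 bp in treatment (435 to 572) and 483 bp in control (438 to 564), against 558 and 540 bp around all genes. The widest peaks, 2214 bp in treatment and 2157 bp in control, were both at the Fcgr3 end among tRNA genes. Peaks of 1 kb or wider numbered 20 in treatment (14.4%) and 27 in control (15.6%), against 17.6% and 18.5% around all genes.

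At sites common to both libraries, the treatment summit was usually the lower one. In 124 pairs of a shared control peak with the treatment peak that overlapped it most, the median log2 difference in fold, treatment over control, was -0.24 (-0.35 to -0.19). The fold was lower in treatment at 97 pairs (78.2%) and higher at 27. Around all genes, the median was -0.22 and 73.1% of pairs were lower in treatment. The difference at the markers was thus close to that found in general.

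Coverage at the summit differed more than fold, by a median log2 of -0.62 (-0.78 to -0.49), and was lower in treatment at 108 pairs. Around all genes the median was -0.47. Local background at the marker pairs was also lower in treatment, by a median log2 of -0.30 (-0.44 to -0.21), against -0.17 around all genes. Peaks were narrower in treatment at 93 pairs and wider at 30, by a median log2 of -0.10, against -0.13 around all genes. The summits moved little: the median distance between paired summits was 10.5 bp, and 94 pairs (75.8%) lay within 50 bp, against 80.5% around all genes.

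**Figure D5:**
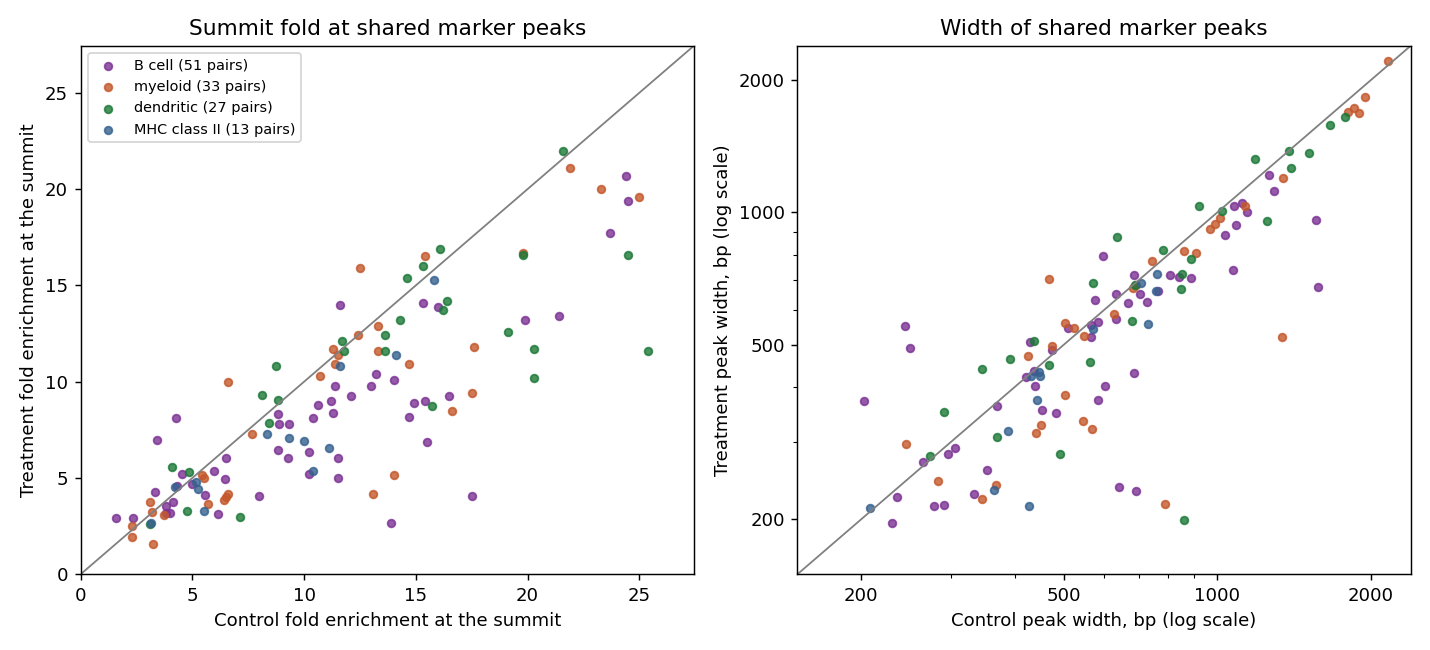
Fold enrichment (left) and peak width in bp on log axes (right) at 124 paired marker peaks, treatment on the vertical axis against control on the horizontal axis, coloured by marker class. Most points lie below the diagonal of equal values: 97 of 124 for fold and 93 of 124 for width.

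By class, the median log2 difference in fold was -0.35 over 51 pairs at B cell loci (-0.44 to -0.24), where 43 were lower in treatment. The B cell interval lay below the median of -0.22 around all genes but included the median of -0.25 over all shared peaks. Of the B cell pairs, 11 came from Ebf1, 9 from Pax5 and 8 from Bank1. At myeloid loci the median was -0.20 over 33 pairs (-0.42 to -0.06), with 25 lower. At MHC class II loci it was -0.24 over 13 pairs (-0.74 to -0.11), with 12 lower. At dendritic loci it was -0.13 over 27 pairs (-0.52 to 0.05), with 17 lower. These differences between classes were not tested. By position, the median was -0.41 over 24 pairs at marker ends (-0.68 to -0.05) and -0.25 over 54 pairs inside the genes (-0.41 to -0.21). It was -0.25 over 28 pairs in the flanks (-0.52 to -0.11) and -0.09 over 18 pairs at the ends of neighbouring genes (-0.26 to 0.08). The intervals of marker ends and neighbours' ends overlapped, and differences between positions were not tested.

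The strongest peaks of the marker loci were found at ends, inside genes and in flanks. Of the 10 strongest peaks, 1 in treatment and 2 in control touched a marker end, close to the share of all locus peaks that did, 25 of 139 in treatment and 31 of 173 in control. All 10 in each library were shared, and 8 sites were among the strongest 10 of both. In treatment the first was a flank peak of Xcr1 at 22.0-fold (21.6-fold in control). It was followed by a peak at the end of Mrps15 beside Csf3r, at 21.1-fold in treatment and 21.9-fold in control. Mrps15 encodes a mitochondrial ribosomal protein. Sites inside Bank1, Spi1 and Ebf1 stood at 20.7, 20.0 and 17.7-fold in treatment and at 24.4, 23.3 and 23.7-fold in control. The flank site of Mpo was at 19.6-fold in treatment and 25.0-fold in control, and the Cr2 promoter was the strongest marker end.

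The rest of the treatment list was completed by 3 further sites. A site inside Zbtb46 was at 16.9-fold in treatment and 16.1-fold in control, and a site beside Fcgr3 at a tRNA gene was at 16.7-fold in treatment and 19.8-fold in control. The end of Clec1b beside Clec9a was at 16.6-fold in treatment and 24.5-fold in control. In control the first place went to a flank site of Clec9a, at 11.6-fold in treatment and 25.4-fold in control. Clec1b encodes another C-type lectin of the same gene cluster. The end of Blk, at 13.4-fold in treatment and 21.4-fold in control, completed the control list.

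By position, 25 treatment peaks and 31 control peaks touched a marker end, and 61 treatment and 82 control peaks lay inside a marker. Another 34 treatment and 39 control peaks lay in the flanks, and 19 treatment and 21 control peaks touched the end of a neighbouring protein-coding gene. The neighbours' ends had the higher folds, with a median of 13.2 in treatment and 12.5 in control, against 7.05 and 9.26 at the markers' own ends.

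A marker without a gene-end peak was not always closed throughout. Zbtb46 (chromosome 2, 181371009 to 181493262) held 12 peaks in each library, all shared, at folds between 5.55 and 16.9 in treatment and between 4.09 and 20.3 in control. Of these, 3 touched the ends of the neighbours Arfrp1, Zgpat, Lime1 or Tpd52l2, and the others lay inside Zbtb46. Pax5 (chromosome 4, 44524748 to 44710694) held 10 peaks in treatment and 11 in control, and 9 treatment and 10 control peaks were inside the gene. Itgax held 6 treatment and 7 control peaks with none within 1 kb of its ends, and 1 peak in each library lay in the loci of both Itgam and Itgax. Blnk and Mpo held 2 peaks in each library, none within 1 kb of an end. By contrast, Ms4a1, Adgre1, C1qa, Clec7a and Siglech together had 1 locus peak in treatment and 5 in control, none of them shared.

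Other genes of the same pathways were counted by the same rule, which held for 61.5% of all protein-coding genes in treatment and 66.1% in control. Of 11 further MHC class II pathway genes, 10 had a gene-end peak in each library, Rfx5, a subunit of the class II promoter-binding complex, being the exception. H2-Eb1, the I-E beta chain, was at 10.4-fold in treatment and 12.3-fold in control. The highest folds of this list were at Rfxap (17.8 in treatment, 15.8 in control) and Rfxank (17.7 and 17.3). Peaks that touched the end of a neighbouring gene were not removed from these counts. Of 10 further B cell genes, 7 had one in treatment and 9 in control. The factor Spib and the surrogate light chain gene Vpreb3 had one in control alone, at 2.83 and 4.75-fold. Several of the rest, such as Lyn, Syk and Plcg2, also work outside B cells. Of 16 further myeloid and dendritic genes, 10 had one in treatment and 12 in control, and Csf2rb, Fcer1g, S100a8 and Elane had none. Irf8, a factor of dendritic cells that activated CD8 T cells also express, was at 20.5-fold in treatment and 19.3-fold in control.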

How the data were processed

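Peaks were called by the authors with MACS2 on each library, after cutadapt 2.5, Bowtie2 2.3 and Picard 2.20 on mm10, per the submitters' processing notes; for the caller's settings, none is given in the sources used here. In the deposited lists each peak has an integer score, the fold enrichment at the summit (a ratio to local background), and −log10 p-value and −log10 q-value; the lowest −log10 q-value was 2.00 in both. Peaks on chromosomes 1 to 19, X and Y were used. Gene spans came from the RefSeq annotation of the same build. Summit coverage in reads was recovered from fold and −log10 p-value under a Poisson model, searching whole numbers only. For all marker peaks a whole number matched the −log10 p-value within 0.001. Read totals are not known. Analysis used Python 3.11.15, pandas 2.3.3 and scipy 1.17.1, and was tested on simulated peaks. Intervals are 95% and cover counting, or the spread between peaks, only. The markers and gene lists were chosen with earlier results of these data known. An item is not reported here. All 35 markers are named; values in full were given for markers with a gene-end peak and for the 10 strongest locus peaks of each library. Alternatives were peak thresholds, list length, flank, window and overlap rules.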

Additional observations from a re-analysis of the deposited data

How the results depend on the processing

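Of 68 alternative values over 12 results, 57 kept their direction or size, 10 moved and 1 reversed. Some of those kept could not have changed. Reducing the control list leaves the treatment gene-end count, locus peaks, median fold and median width as they were. Taking the gene span alone, locus peaks numbered 83 in treatment and 109 in control. With 50 kb on each side they numbered 313 and 401. With the control list reduced to the length of the treatment list by p-value, the ratio of locus peaks reversed to 1.05 (0.818 to 1.34), the shared share was 81.3% in treatment and 83.5% in control, and the control medians were 11.1 for fold and 582 bp for width; fewer, stronger control peaks enter by construction. The shared share in treatment was 84.2% under a 50% reciprocal overlap and likewise 84.2% with summits within 150 bp. Cd22 and Lyz2 had a gene-end peak in control alone under every setting tried; Csf1r lost its control peak at a −log10 q-value of 5 or 10, at equal list length and in a 500 bp window, and Clec9a in the last 2 of these. Cd68 lost its treatment peak at a −log10 q-value of 10. In a 2 kb window, gene-end counts were 23 in treatment and 28 in control; Csf1r, Pax5, Csf3r, Mpo and Itgax then had a peak in both libraries, and Fcer2a and C1qa in control alone. Flt3 had more locus peaks in treatment under every setting tried, while Spi1 had equal numbers, 5 and 5, once peaks below a −log10 q-value of 10 were dropped. No paired analysis was possible because each group had 1 library. The depth at the weakest sites, such as 33 reads at Csf1r, limits what a missing peak says.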
